A study of Monodelphis domestica with 5 samples.

Results

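Stretches of opossum chromosomes 1 to 8 that carried no mark of activation (MOA) over at least 300000 bases, called MOA deserts below, were described together with the marks of repression (MORs) that lay in them. The deserts were found from the deposited peaks of the MOAs H3K4me3 and H3K9Ac. The deserts were thus chosen by measured peaks. Peaks of both marks were pooled, peaks that shared a base were merged, and each gap of at least 300000 bases between neighbouring merged peaks was taken. Of 78735 gaps between 78743 merged MOA peaks, 1297 (1.65%) met this length. As the MOA peaks define the deserts, the number, length and position of the deserts are a description. H3K9me3 and H3K27me3 took no part in the definition.

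The peaks came from native ChIP-seq, in which chromatin is digested with micrococcal nuclease without cross-linking and precipitated with an antibody. Chromatin was taken from primary ear fibroblasts of a single adult male gray short-tailed opossum (Monodelphis domestica, A0514), the F1 offspring of an LL1 mother and an LL2 father, at passages 4 to 6 according to the labels. There was 1 library for each of the 4 antibodies and 1 library of input chromatin, against which the authors called peaks with MACS on the MonDom5 assembly. No treatment or second group was included, so the only contrast is between places in the same genome, without replicate error and without a test between samples. The share of cells that carry a mark and the amount of the mark in each cell cannot be told apart in such bulk chromatin. Gene positions on MonDom5 were not used here, so fibroblast identity was not checked at marker genes.

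H3K4me3 is placed around the starts of active and poised genes, and H3K9Ac, which is laid down by acetyltransferases recruited with the transcription machinery, is found at active promoters and enhancers. H3K9me3 is the mark of constitutive heterochromatin. It is bound by heterochromatin protein 1 and covers much of the silenced repeat sequence of mammalian genomes. H3K27me3 is written by Polycomb repressive complex 2 and is known for keeping developmental genes silent, often close to CpG-rich promoters. Long stretches without active promoters or enhancers usually correspond to gene-poor sequence or to genes that are silent in the cell type.

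On chromosomes 1 to 8 the deserts added up to 1134 Mb, which is 33.1% of the 3423 Mb span taken from the last peak on each chromosome. They were few among the gaps but long, since the median of all gaps was only 12.0 kb. The median desert was 534 kb long, with quartiles of 384 kb and 934 kb. A minority held most of the length, as 298 deserts of 1 Mb or more made up 55.1% of the desert bases, and 125 deserts of 2 Mb or more made up 34.1%.

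Chromosomes 5 and 7 stood apart in the share of their span that lay in deserts. This share was 44.7% on chromosome 5 (115 deserts, 136 Mb) and 44.4% on chromosome 7 (113 deserts, 116 Mb). On the other 6 chromosomes it lay between 28.6% on chromosome 2 and 33.5% on chromosome 6. Chromosome 5 also had the longest median desert, at 675 kb, against 495 kb to 555 kb on the others. Chromosome 1, the largest, had the most deserts, 277 of them in 220 Mb. Along the chromosomes the deserts were spread widely. When each chromosome was divided into 10 equal parts, the share in deserts ranged from 26.7% in the ninth part to 38.1% in the sixth, and it was 29.6% in the terminal 10 Mb at both ends, against 33.3% elsewhere.

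**Figure D1:**
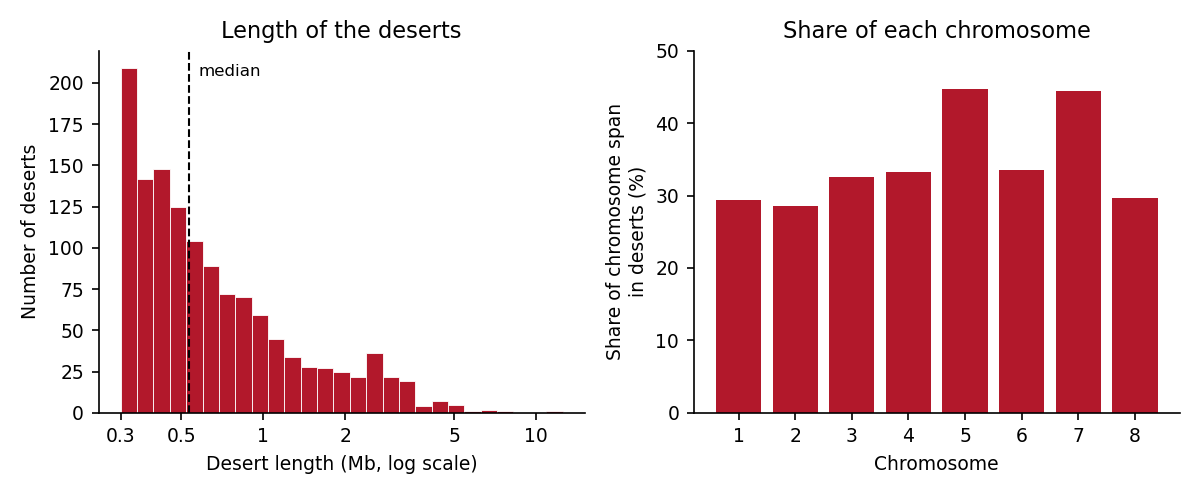
Number of MOA deserts by length (Mb, log scale, dashed line at the median) and the share of the span of each chromosome that lay in deserts (%, 1 bar per chromosome). Most deserts were shorter than 1 Mb, the longest reached 11.9 Mb, and chromosomes 5 and 7 had the largest shares, 44.7% and 44.4%.

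The longest desert ran over 11.9 Mb of chromosome 3 (chr3:125458583-137370517) and held 944 H3K9me3 peaks with a score of at least 50 and no such H3K27me3 peak. MACS scores a peak by the negative logarithm of its p-value, and a score of 50 stands for a p of 1e-05. The second longest lay directly beside it (chr3:117904413-125457397, 7.55 Mb) with 581 H3K9me3 peaks and no H3K27me3 peak, both at a score of at least 50. A single merged MOA peak separated these neighbours and another separated the longer from another desert, so that 19.9 Mb of chromosome 3 (chr3:117904413-137780819) contained only 2.38 kb under MOA peaks and 1536 H3K9me3 peaks.

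The next in length were deserts on chromosome 2 (chr2:83847204-90181158, 6.33 Mb, 471 H3K9me3 peaks), chromosome 7 (chr7:123434471-129700044, 6.27 Mb, 490 peaks) and chromosome 5 (chr5:158220183-163747097, 5.53 Mb, 447 peaks). None of them held an H3K27me3 peak with a score of at least 50. Per Mb, these 5 deserts held between 74.4 and 80.9 H3K9me3 peaks, a narrow range. H3K9me3 peaks covered between 16.0% and 18.9% of their bases.

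The remaining 5 of the 10 longest were more variable in H3K9me3. On chromosome 5, chr5:284943420-290354196 (5.41 Mb) had 69.5 H3K9me3 peaks per Mb (exact Poisson 95% interval 62.6 to 76.9) and chr5:189362822-194323039 (4.96 Mb) had 81.0. On chromosome 2, chr2:363705612-368599598 (4.89 Mb) had 63.5. The lowest values were 32.6 per Mb in chr3:56822391-61975213 (5.15 Mb) and 35.5 per Mb (interval 30.4 to 41.3) in chr1:42368982-47209641 (4.84 Mb). The 10 longest deserts held at most 1 H3K27me3 peak each at a score of at least 50.

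A peak-free stretch affected the former of these low values. On each of chromosomes 1 to 7, and not on chromosome 8, there was exactly 1 stretch of more than 1 Mb without a peak in any of the 4 lists, and its length was nearly the same each time, from 3000372 to 3060255 bases. The next longest stretch without any peak was 607 kb. The 7 stretches hold no MOA peak and are longer than the smallest gap taken as a desert. That they lay in deserts thus follows from the definition and is no finding. Together they took up 21.1 Mb of the deserts. In the chromosome 3 desert the stretch ran from 56857482 to 59863519, and over the other 2.15 Mb the density was 78.3 H3K9me3 peaks per Mb, close to that of the longest deserts. On chromosome 6 (chr6:73832720-76847829) and chromosome 7 (chr7:42487934-45501158) the stretch was nearly or wholly the desert itself. Whether the assembly holds sequence in these stretches was not tested, as the sequence was not used here.

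H3K9me3 peaks with a score of at least 50 were more than 2 times as dense in deserts as in the rest of the same chromosomes. On chromosomes 1 to 8, 44866 of 81865 such peaks (54.8%) had their midpoint in a desert. This was 39.6 peaks per Mb (interval 39.2 to 39.9) in deserts against 16.2 per Mb (interval 16.0 to 16.3) in the other 2289 Mb, a ratio of 2.45 (exact 95% interval 2.42 to 2.48). H3K9me3 peaks covered 8.65% of desert bases and 3.59% of the rest. The intervals cover counting error only and treat peaks as independent. Without the 7 peak-free stretches the ratio was 2.50, in a calculation added after the data were seen. With only peaks that had a score of at least 100 the ratio was 1.09, and with a score of at least 200, also added later, it turned to 0.249.

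The direction was shared by the 8 chromosomes, whose values show the spread within this genome and are not replicates. The ratio ranged from 2.14 on chromosome 8 to 2.80 on chromosome 7. In deserts the density ranged from 33.0 H3K9me3 peaks per Mb on chromosome 6 to 44.9 on chromosome 3, and outside them from 14.6 on chromosome 7 to 17.0 on chromosome 5, so that the values inside and outside did not overlap. Chromosomes 5 and 7, with the largest share of deserts, had 67.3% and 69.1% of their H3K9me3 peaks in deserts.

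**Figure D2:**
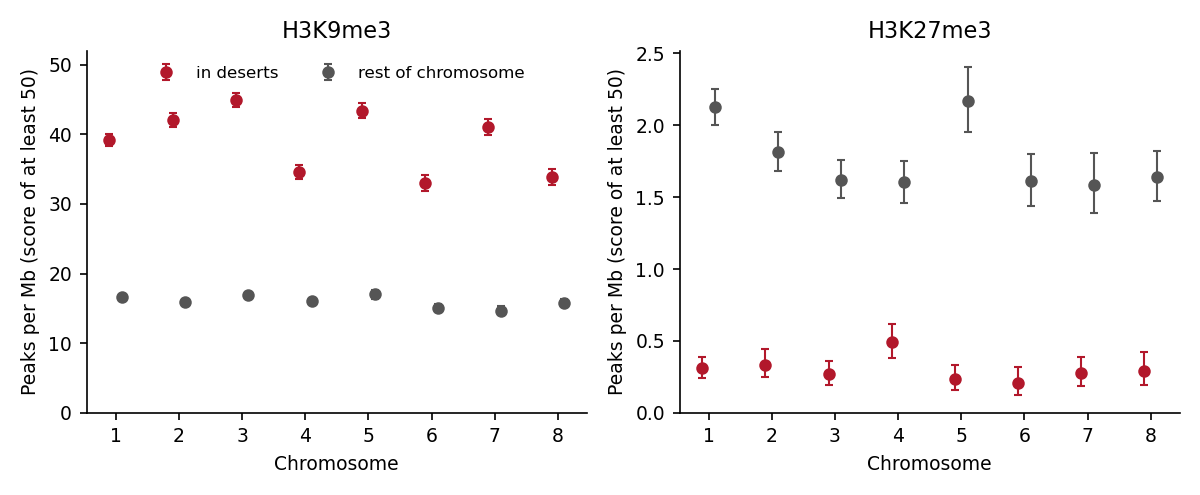
H3K9me3 and H3K27me3 peaks per Mb (score of at least 50) on chromosomes 1 to 8, in deserts (red) and in the rest of the chromosome (grey), with exact Poisson 95% intervals as bars. H3K9me3 was denser in deserts on each chromosome (33.0 to 44.9 per Mb against 14.6 to 17.0), and H3K27me3 was sparser (0.205 to 0.490 against 1.59 to 2.17).

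The excess of H3K9me3 was found in deserts longer than 500 kb. In deserts of 300 to 400 kb there were 15.0 H3K9me3 peaks per Mb (interval 14.3 to 15.7) and in those of 400 to 500 kb 16.6 per Mb (interval 15.8 to 17.4). Shorter gaps had 11.6 per Mb below 10 kb, 17.8 at 10 to 30 kb, 19.0 at 30 to 100 kb and 15.4 (interval 15.1 to 15.7) at 100 to 300 kb, so deserts up to 500 kb lay within the range of the shorter gaps. The density then rose to 27.7 per Mb at 500 to 1000 kb, to 45.5 at 1000 to 2000 kb and to 58.5 (interval 57.7 to 59.3) in deserts of 2 Mb or more. In the longest class the peak-free stretches lowered the value, which was 61.9 per Mb without them. The 125 deserts of this class made up 11.3% of the span and held 27.6% of the H3K9me3 peaks.

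**Figure D3:**
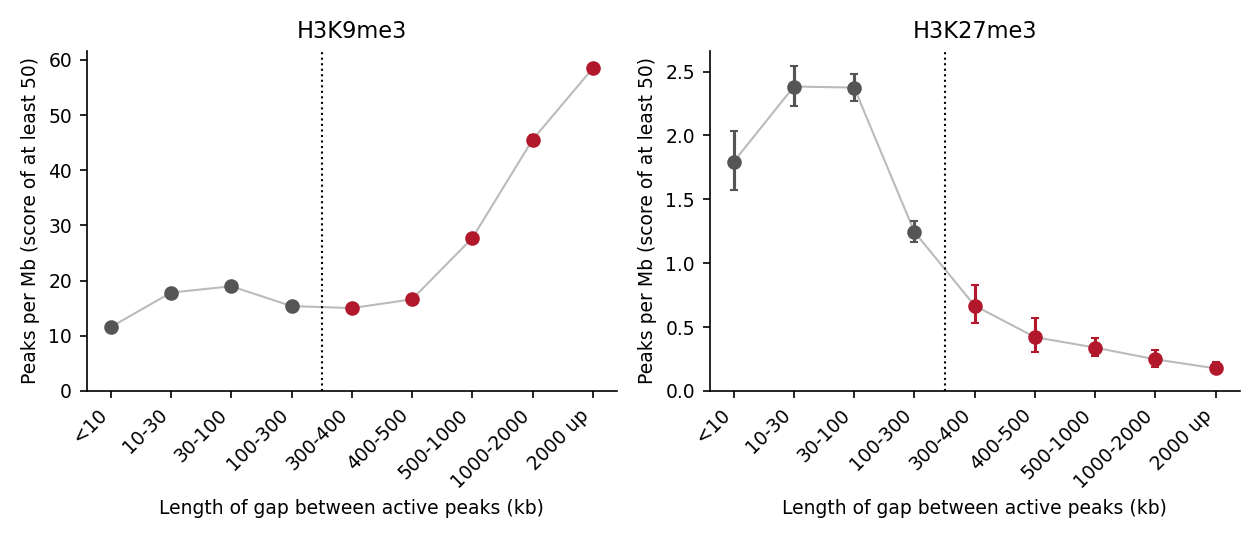
H3K9me3 and H3K27me3 peaks per Mb (score of at least 50) by length of the gap between neighbouring merged MOA peaks (kb), with exact Poisson 95% intervals as bars. Gaps to the right of the dotted line, in red, are deserts, where H3K9me3 rose from 15.0 to 58.5 per Mb and H3K27me3 fell from 0.667 to 0.176 per Mb with length.

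At the limit itself, gaps just below and just above 300000 bases were alike in H3K9me3. The 3 gaps just below it, of 299381, 299414 and 299678 bases, held 5, 3 and 8 H3K9me3 peaks, and the 3 just above it, of 300673, 300802 and 300924 bases, held 4, 8 and 2. None of the 6 held an H3K27me3 peak with a score of at least 50. Over 352 gaps of 250 to 300 kb there were 14.6 H3K9me3 and 0.760 H3K27me3 peaks per Mb, and over 224 gaps of 300 to 350 kb 14.5 and 0.414 per Mb.

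H3K9me3 also increased from the edge of a long desert towards its interior. In deserts of 1 Mb or more, the outermost 10 kb inside the edge had 22.3 H3K9me3 peaks per Mb (interval 18.7 to 26.4). The density was 29.9 at 50 to 100 kb, 43.3 at 200 to 300 kb and 52.2 (interval 50.4 to 54.1) at 400 to 500 kb from the edge. On the other side of the same edges it was 13.3 per Mb (interval 10.2 to 17.1) in the first 10 kb and between 15.3 and 17.3 per Mb from there to 500 kb. Over all 1297 deserts the gradient was shallower, from 17.3 per Mb in the outermost 10 kb to 22.3 per Mb at 100 to 150 kb.

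**Figure D4:**
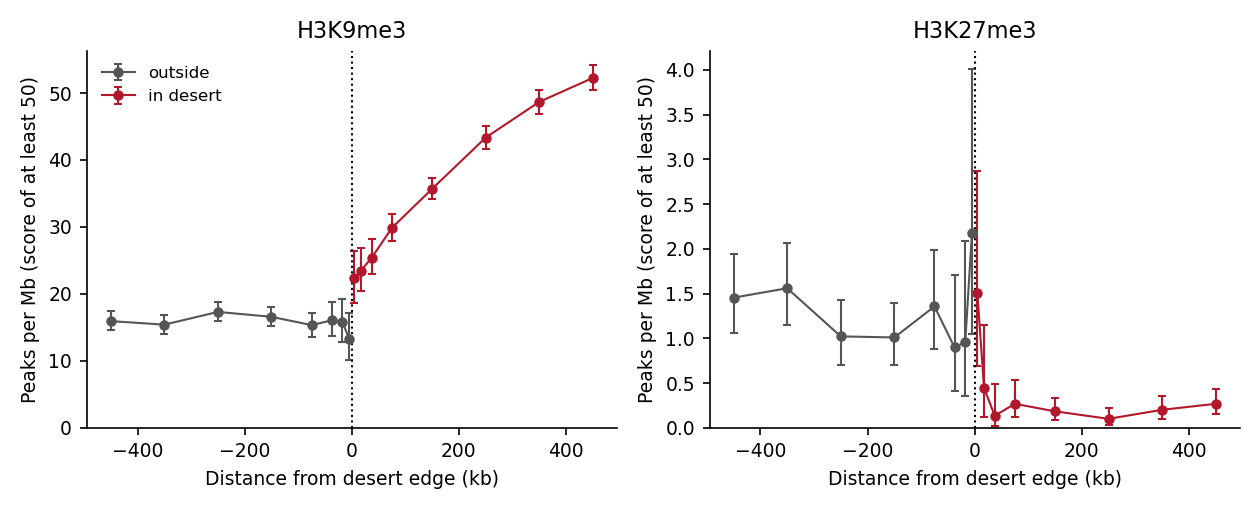
H3K9me3 and H3K27me3 peaks per Mb (score of at least 50) by distance from the desert edge (kb, negative outside) for the 298 deserts of 1 Mb or more, with exact Poisson 95% intervals as bars. H3K9me3 rose from 22.3 to 52.2 per Mb towards the interior, while H3K27me3 was at 1.51 per Mb in the outermost 10 kb and at most 0.447 further in.

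The H3K9me3 peaks of deserts were many but scored lower than those of the rest. Their median score was 70.2 (interval 69.9 to 70.5), against 90.5 (interval 89.8 to 91.2) in the rest of the chromosomes. A score comes from a p-value and depends on peak width and read depth, so it is no measure of the amount of the mark. Strong peaks below are peaks with a high score. The medians per chromosome lay between 69.4 and 70.8 in deserts and between 88.7 and 91.8 outside them. The excess in deserts shrank as the score rose and then turned. For scores of 50 to 75 the density in deserts was 3.81 times that of the rest, for 75 to 100 it was 2.90 times, and for 100 to 200 it was 1.51 times. For scores of 200 to 400 the ratio was 0.289 (interval 0.264 to 0.315) and for scores of 400 or more it was 0.121 (interval 0.0948 to 0.153). Of the H3K9me3 peaks in deserts, 661 (1.47%) reached a score of 200, against 5361 (14.5%) outside them. These strong peaks were in 295 deserts (22.7%), against 41.2% of 6716 bins of 300000 bases wholly outside deserts.

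**Figure D5:**
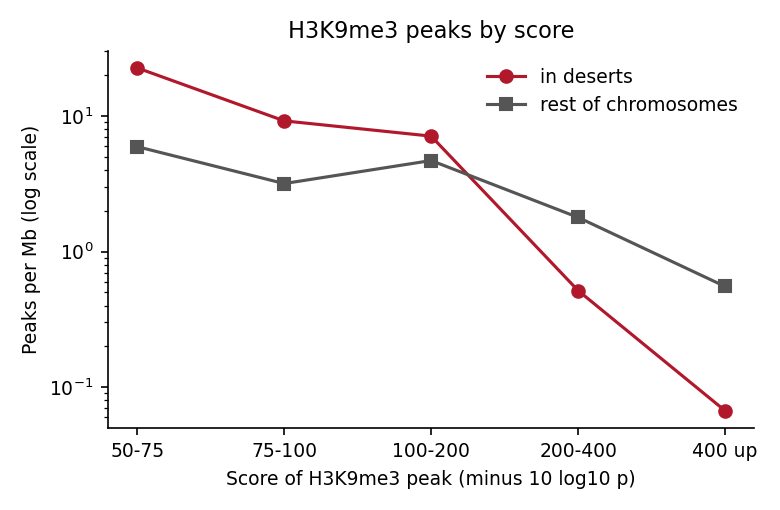
H3K9me3 peaks per Mb (log scale) by score of the peak (minus 10 times log10 p) in deserts (red circles) and in the rest of chromosomes 1 to 8 (grey squares). The lines cross between scores of 100 to 200 (7.11 per Mb in deserts, 4.70 outside) and 200 to 400 (0.516 and 1.79).

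Strong H3K9me3 peaks rose less with desert length than all H3K9me3 peaks did. Peaks with a score of at least 200 had a density of 0.488 per Mb (interval 0.373 to 0.628) in deserts of 300 to 400 kb, of 0.487 to 0.538 per Mb in the classes from 400 to 2000 kb, and of 0.738 per Mb (interval 0.654 to 0.828) in deserts of 2 Mb or more. In gaps of 10 to 30 kb, between closely spaced MOA peaks, it was 3.11 per Mb. The median score varied little among desert lengths, from 73.9 at 300 to 400 kb to 69.3 at 1000 to 2000 kb.

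In width the H3K9me3 peaks of deserts and of the rest were similar at a score of at least 50, but this depended on the score. The ratio of median widths was 0.952 with every deposited peak and 1.22 at a score of at least 100. At a score of at least 200, added after the data were seen, it was 1.45. The values below are for a score of at least 50. The median width was 1963 bases (interval 1956 to 1971) in deserts and 1880 bases (interval 1872 to 1888) outside, a ratio of 1.04, and it lay between 1.02 and 1.06 on each chromosome. Widths of 5000 bases or more were a smaller part of the desert peaks (1.32% against 2.61%), although per Mb they were denser in deserts (ratio 1.23, interval 1.11 to 1.37). Neighbouring H3K9me3 peaks of the same desert were closer together, with a median of 10.4 kb between midpoints (quartiles 5.12 kb and 21.9 kb), than neighbouring peaks of the rest, with a median of 27.2 kb (quartiles 9.04 kb and 72.1 kb).

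The strongest H3K9me3 peaks in deserts were exceptions in both score and width. The highest score, 1698, belonged to a peak of 22024 bases deep inside a 1500 kb desert of chromosome 8 (chr8:79655163-79677186, 551 kb from the nearer edge). The second, with a score of 1594, lay 1.95 kb from the edge of a 353 kb desert of chromosome 4 (chr4:17269587-17276364). The third and the fifth, with scores of 1529 and 1390, were 56307 and 39733 bases wide and shared a 317 kb desert of chromosome 1 (chr1:229851217-230167895), the former reaching 17.6 kb past its edge. The fourth, with a score of 1493, was 31694 bases wide on chromosome 2 (chr2:259209536-259241229).

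The deserts differed widely among themselves in H3K9me3. Over the 1297 deserts the median was 19.0 peaks per Mb, while the lowest 10% of deserts were at or below 3.14 and the highest 10% at or above 63.1. In 713 deserts (55.0%) the density was above that of the rest of the chromosome, against 42.3% of the same 6716 bins outside deserts. By length this share was 29.2% of the 359 deserts of 300 to 400 kb and 90.6% of the 298 deserts of 1 Mb or more. The deserts of 300 to 400 kb, closest to the bins in length, were thus below the 42.3% of the bins. Across deserts, length and density had a Spearman correlation of 0.54 (n = 1297), a description only, since all values come from 1 library and neighbouring deserts share their surroundings.

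Among deserts of 500 kb or more the highest density of H3K9me3 was 113 peaks per Mb (interval 101 to 127) in chr2:471728352-474390650, with 301 peaks in 2.66 Mb and 27.4% of its bases covered. The others of the 5 densest were chr3:299586461-300102213 (111 per Mb), chr1:519368765-520404936 (109), chr3:296032201-298508233 (107) and chr4:157098622-159838998 (106), whose intervals overlapped. Both chromosome 3 deserts belong to a run of 5 deserts, each separated from the next by a single merged MOA peak (chr3:296032201-300102213). This run had the most members of the 170 runs found. Its 5 deserts held 427 H3K9me3 peaks in 4.06 Mb, or 105 per Mb, and the densest, chr3:299143014-299585281, reached 118 per Mb.

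At the other end, 57 deserts (4.39%) held no H3K9me3 peak with a score of at least 50, against 6.28% of the bins of 300000 bases outside deserts. Among deserts of 300 to 400 kb, which are closest to the bins in length, 38 (10.6%) held none. The count of 57 depended on the settings, and was 20 with every deposited H3K9me3 peak, 333 with scores of at least 100 and 7 among deserts of at least 500000 bases. Both MORs were absent at this score from 54 deserts. Apart from the peak-free deserts of chromosomes 6 and 7 described above, the longest of these were chr8:298431555-299068209 (637 kb), chr3:495238870-495815883 (577 kb) and chr2:71061225-71635866 (575 kb).

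At a score of at least 50, H3K27me3 peaks went the opposite way to H3K9me3 peaks and were sparse in deserts. At a score of at least 200 both were sparser in deserts, with ratios of 0.112 for H3K27me3 (3 peaks in deserts) and 0.249 for H3K9me3. The study described H3K27me3 as diffuse and placed most of its significant peaks between genes. Gene positions were not used here, so how that relates to the deserts was not tested. Signal that formed no peak is not counted here. Only 348 of 4484 H3K27me3 peaks with a score of at least 50 (7.76%) lay in deserts, which is 0.307 per Mb (interval 0.276 to 0.341) against 1.81 per Mb (interval 1.75 to 1.86) in the rest. The ratio was 0.170 (interval 0.152 to 0.190), and 0.368 where deserts were defined by H3K9Ac alone. It ranged from 0.108 on chromosome 5 to 0.306 on chromosome 4, and densities inside and outside did not overlap between chromosomes. H3K27me3 peaks covered 0.0788% of desert bases and 0.421% of the rest. No H3K27me3 peak lay in 1037 deserts (80.0%), against 67.8% of the 6716 bins outside deserts, and 214 deserts had exactly 1. Among deserts of 300 to 400 kb, which are closest to the bins in length, 310 (86.4%) held none.

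The density of H3K27me3 decreased with length from gaps of 30 to 100 kb upwards and was lowest in the longest deserts. It was 1.79 per Mb (interval 1.57 to 2.04) in gaps below 10 kb, 2.38 (interval 2.23 to 2.54) at 10 to 30 kb, 2.37 in gaps of 30 to 100 kb, 1.24 in gaps of 100 to 300 kb, 0.667 (interval 0.531 to 0.828) in deserts of 300 to 400 kb and 0.176 (interval 0.137 to 0.223) in deserts of 2 Mb or more. Within deserts, H3K27me3 was concentrated at the edges. The outermost 10 kb of the 1297 deserts had 2.12 peaks per Mb (interval 1.60 to 2.76), close to the 2.18 per Mb just outside the edge. From 25 to 50 kb inwards the density was 0.355 per Mb, and at 100 to 150 kb it was 0.262 per Mb.

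The H3K27me3 peaks of deserts had a median score and width whose intervals overlapped those of the others. The median score was 64.9 (interval 62.8 to 67.1) in deserts and 65.4 (interval 64.8 to 66.1) outside, and the median width was 2170 bases (interval 2075 to 2223) and 2097 bases (interval 2077 to 2119). Broad peaks of 5000 bases or more were a larger part of the H3K27me3 peaks in deserts, 18 of 348 (5.17%), than of the rest, 80 of 4136 (1.93%), although per Mb they were still sparser in deserts (ratio 0.454, interval 0.256 to 0.765).

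A single desert held 23 of the 348 H3K27me3 peaks (6.61%), while no other held more than 6. It is the 353 kb desert of chromosome 4 (chr4:16924880-17278316) that also holds the second strongest H3K9me3 peak in a desert, and it had 21 H3K9me3 peaks, or 59.4 per Mb. It was singled out after its value was seen. Without it the density of H3K27me3 in deserts of chromosome 4 was 0.332 per Mb in place of 0.490, and the ratio over the 8 chromosomes was 0.159. Among deserts of 500 kb or more the highest densities of H3K27me3 were 7.41 per Mb (6 peaks) in chr3:51066716-51876512, 7.04 per Mb (4 peaks) in chr2:38026331-38594526, 5.82 per Mb (3 peaks) in chr4:403515215-404030803, 5.80 per Mb (3 peaks) in chr2:259003533-259520521 and 4.00 per Mb (6 peaks) in chr8:79103940-80603833. The last 2 also contain the fourth and the first of the strongest H3K9me3 peaks.

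The 5 highest H3K27me3 scores in deserts were led by a peak of 46647 bases with a score of 714, which reached 6.99 kb past the edge of a 414 kb desert of chromosome 3 (chr3:458627967-458674613). The others scored between 169 and 221, lay on chromosomes 1, 2, 4 and 5 and were at least 149 kb from an edge.

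In deserts H3K27me3 peaks shared a base with an H3K9me3 peak more often than elsewhere. This was so for 214 of 348 (61.5%, exact binomial 95% interval 56.2% to 66.6%) in deserts and for 1678 of 4136 (40.6%, interval 39.1% to 42.1%) in the rest. H3K9me3 also covered 2.41 times as large a share of desert bases, and the part of this in the difference was not tested. In deserts the H3K27me3 peaks with H3K9me3 had a median score of 66.7 and those without it 62.3.

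The MOA peaks that bound the deserts were part of the definition and are described without a test. Of 2376 merged MOA peaks at a desert edge, 54.4% were made of H3K4me3 only, 5.09% of H3K9Ac only and 40.5% of both marks, against 38.8%, 6.46% and 54.8% of the 76367 merged peaks elsewhere. Their median width was 1816 bases against 2036 bases. A subset of 218 lay alone between a desert on each side, and 67.0% of these were H3K4me3 only. An H3K9me3 peak overlapped 88 of the edge peaks (3.70%, interval 2.98% to 4.54%), 12 of those alone between deserts (5.50%, interval 2.88% to 9.42%) and 3.82% of merged peaks elsewhere (interval 3.68% to 3.96%). The intervals overlapped, the 218 peaks are part of the 2376, and whether these places differ was not tested.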

How the data were processed

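Per the labels and the study's methods, the authors removed low-quality reads, aligned the rest to MonDom5 with Bowtie (best alignment only) and used MACS, with the input as control, to call the peaks of each antibody. CASAVA 1.7, Bowtie 1.1.2 and MACS 1.0.1 are named in the submitters' processing notes. Each deposited list gives the start, the end and a score per peak, the negative log10 of the MACS p multiplied by 10, which is not normalized between libraries. The MOA lists start at a score of 50 and the MOR lists at 30 (p of 0.001). With a score of at least 50, chromosomes 1 to 8 alone held 81865 H3K9me3 peaks. This is more than the study reported for the whole genome at a p of 1e-05. The H3K9me3 peaks used here are therefore not the study's own set at that p, and the reason was not tested. Of 13322 deposited H3K27me3 peaks on chromosomes 1 to 8, only 4484 had a score of at least 50. This is fewer than the study reported for the whole genome at that p. Peaks on other sequence were left out here, so whether the H3K27me3 peaks match the study's set was not tested. The lists hold no read counts, so the depth behind a peak is unknown here.

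Starts below 0 were set to 0 and printed positions count from 1. A MOR peak belonged to the desert that held its midpoint. The rest of a chromosome was every other base up to the last peak of any list. The deserts and the regions named were chosen with earlier results of these data known. The regions named were the 10 longest deserts, the 5 densest in each MOR among deserts of at least 500000 bases, the 5 longest without MOR peaks, the 3 gaps on each side of 300000 bases and the 5 highest-scoring peaks of each MOR in deserts. Ratio intervals are conditional exact 95% binomial intervals, densities have exact Poisson intervals, and medians have order-statistic intervals. Python 3.11.15, numpy 2.4.6 and scipy 1.17.1 were used. The code was tested on simulated peaks, and bedtools 2.31.1 gave the same 1297 deserts.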

Additional observations from a re-analysis of the deposited data

Results flagged for a closer look

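The X chromosome was outside the definition, and its lists hold a signal that no comparison above used. By the same rule it had 50 deserts, which took up 49.1% of its span. Their H3K9me3 density was 2.54 peaks per Mb (99 peaks) against 3.05 per Mb (123 peaks) in the rest of X, a ratio of 0.834 (exact 95% interval 0.634 to 1.10), below the range of 2.14 to 2.80 on chromosomes 1 to 8. X held 3 stretches of 1 Mb or more without any peak, 3.68 Mb in all, and without them the ratio was 0.921 (interval 0.700 to 1.21), a calculation added after seeing the data. H3K9me3 peaks were sparse on X both in and outside deserts, where chromosomes 1 to 8 had 39.6 and 16.2 per Mb. The male donor carried a single X. Whether X differs, and what part its single copy has in these values, was not tested. H3K27me3 peaks on X were too few to compare, with 2 in deserts and 3 outside.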

How the results depend on the processing

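Ratios below are deserts over the rest of the chromosomes, and score differences are deserts minus the rest. No result has a test, and the error between libraries is unknown. No paired analysis was possible because each antibody had a single library. Over 172 recalculations of 12 results, 100 moved by less than the counting interval or the spread between chromosomes, 62 moved by more and 10 turned in direction. Among the 100 were large changes in the number of deserts. From 1297 it went to 1326 with H3K4me3 alone, 1786 with H3K9Ac alone and 1483 with MOA scores of at least 100. The bases in deserts went from 1133681289 to 1154029639, 1555670409 and 1288945206 in that order. For H3K9me3, the density ratio (2.45) was 2.17 with a smallest gap of 200000 bases (2206 deserts), 2.82 with 500000 (709 deserts), 2.41 with H3K4me3 alone, 2.01 with H3K9Ac alone, 2.24 with MOA scores of at least 100, 3.28 with every deposited MOR peak, 1.09 with MOR scores of at least 100, 2.28 against a rest without MOA peaks and 10 kb around them and 2.62 without 50 kb at each edge. In the same order the covered ratio was 2.13, 2.77, 2.37, 1.99, 2.19, 3.001, 1.26, 2.27 and 2.58. With MOR scores of at least 200, added after seeing the data, both turned, to 0.249 and 0.406. Without the peak-free stretches, also added later, they were 2.50 and 2.46. The H3K9me3 width ratio was 1.04 at 200000 bases, turned to 0.952 with every MOR peak, and was 1.22 and 1.45 at MOR scores of at least 100 and 200. The H3K9me3 score difference was -21.77 at 200000 bases, -18.18 at 500000, -21.76 with H3K9Ac alone, -21.31 with MOA scores of at least 100, -13.82 with every MOR peak, -33.72 and -51.75 at MOR scores of at least 100 and 200, and -16.61 against the rest away from MOA peaks. For H3K27me3, the density ratio (0.170) was 0.197 at 200000 bases, 0.145 at 500000, 0.368 with H3K9Ac alone, 0.196 with MOA scores of at least 100, 0.211 with every MOR peak, 0.131 and 0.112 at MOR scores of at least 100 and 200, 0.201 away from MOA peaks and 0.130 without desert edges. From 500000 bases on in that order its covered ratio was 0.151, 0.399, 0.209, 0.226, 0.167, 0.298, 0.225 and 0.136. The H3K27me3 width ratio turned to 0.998 at 500000 bases and to 0.998 with every MOR peak, and was 1.34 at a score of at least 200. Its score difference was -4.19 at 500000 bases and -17.30 at a score of at least 200, and turned to 0.81 with H3K9Ac alone, 3.52 at a score of at least 100 and 1.24 away from MOA peaks. Leaving out each chromosome in turn gave H3K9me3 ratios of 2.41 to 2.49 (density), 1.04 to 1.05 (width) and 2.37 to 2.46 (covered) with score differences of -20.54 to -19.93, and H3K27me3 ratios of 0.153 to 0.179, 1.02 to 1.04 and 0.170 to 0.199 with score differences of -1.14 to 0.53, which turned without chromosome 2 (0.53) and without chromosome 5 (0.35). The causes of these changes were not tested. Removing unsequenced bases and counting genes in deserts were planned and not run, since the MonDom5 sequence and annotation were not used here.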
